A study of Mus musculus with 9 samples.

Results

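Cathepsins and the subunits of the proton pump that acidifies lysosomes were examined in the livers of mice fed a nonalcoholic steatohepatitis (NASH) diet. The members were the genes whose symbol is Cts followed by a single lower-case letter, or begins with Atp6v or Atp6ap. These patterns took 39 of the 24008 genes counted, 16 cathepsins and 23 pump genes. Of these, 32 had enough reads to be tested (13 cathepsins and 19 pump genes) and 7 did not.

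Cathepsins are proteases that break down proteins delivered to the lysosome by endocytosis, phagocytosis and autophagy. Most are cysteine proteases, cathepsins D and E are aspartic proteases, and cathepsins A and G are serine proteases. They work in the acid made by the vacuolar ATPase, in which a cytosolic V1 sector hydrolyses ATP and turns a rotor that drives protons through the membrane-bound V0 sector. In the liver every cell type carries lysosomes, and macrophages are rich in them.

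Total liver RNA of 3 groups was sequenced, with 3 liver samples in each. Flox mice, labelled WT, carried the floxed Irf4 gene without its deletion, and F4MKO mice lacked IRF4 in skeletal muscle. F4MKO + FSTL1 mice carried the same muscle deletion and overexpressed follistatin-like protein 1 (FSTL1), a protein secreted by muscle. All 3 groups ate a diet high in fat and carbohydrate. The study's methods give C57BL/6 mice and, for the overexpression, an AAV8 vector injected into the gastrocnemius that drives Flag-tagged FSTL1 from the muscle creatine kinase promoter. The methods also give a GFP vector of the same kind for Flox and F4MKO mice. The labels name no age, sex or vector. Both alterations were thus aimed at muscle, while the RNA came from liver.

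The libraries held between 20656976 and 24322984 counted reads. Because the deletion was made in muscle, Irf4 reads in liver do not check the genotype. The first F4MKO + FSTL1 library nevertheless stood apart with 10 Irf4 reads, against 92 to 132 in each of the other 8 libraries, and the first F4MKO library had the highest normalization factor (1.17, lowest 0.927). Liver Fstl1, which does not check the muscle vector either, was at 6.15, 7.62 and 6.52 CPM in Flox, 16.1, 9.8 and 11.3 CPM in F4MKO and 5.33, 3.22 and 4.33 CPM in F4MKO + FSTL1, highest in F4MKO. No gene in these liver libraries checks the group labels, which are used as given, and the direction of every difference rests on them. By staining, the study reports fewer liver macrophages and less fibrosis in F4MKO than in Flox, and more of both in F4MKO + FSTL1. By PCR it reports lower liver Col1a1 in F4MKO than in Flox, and unchanged liver Fstl1 after the vector. Here mean Col1a1 ran the other way, at 14.9 CPM in Flox, 39.8 in F4MKO and 8.34 in F4MKO + FSTL1. Its difference between F4MKO and Flox did not pass (edgeR adjusted p = 0.061). Whether group labels were exchanged was not tested. Levels are given as CPM, read counts scaled by library size after TMM normalization, each difference was tested by the quasi-likelihood method of edgeR with p-values adjusted after Benjamini and Hochberg over 14379 genes, and a gene was called when the adjusted p was under 0.05 and the fold change over 1.5. The labels do not say that the 3 samples of a group came from separate mice, and p-values measure the spread between these samples.

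Between F4MKO + FSTL1 and F4MKO livers, 5 of the 32 tested members were called, and all 5 were lower in F4MKO + FSTL1. They were the cysteine cathepsins Ctss, Ctsk and Ctsw and the V0 subunits Atp6v0d2 and Atp6v0e2. This was 15.6% of the tested members, beside 11.2% of all genes tested that were called lower and 3.21% called higher, and the members' share was not set apart from it by any test. The background rested on the libraries used: it was 7.2% without the first F4MKO library and 6.5% without the second F4MKO + FSTL1 library, with 4 of 32 members (12.5%) called in both cases. Among cathepsins it was 3 of 13 (23.1%) and among pump genes 2 of 19 (10.5%). The 32 tested members exceeded the low-count limit of 0.432 CPM in every Flox and every F4MKO library, so no member was tested through its F4MKO level alone.

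The stretches of DNA ahead of the called genes are shown beside those of 2 pump genes that hold a known promoter element of lysosomal genes, so that both kinds can be compared by eye. TFEB and related factors bind E-boxes with the core CACGTG in many lysosomal genes, most tightly in the longer form TCACGTGA. Both words read the same on either strand, and every TCACGTGA holds a CACGTG. Sequences are from RefSeq on GRCm38.p6, 5′ to 3′ on the strand of the gene, cut to bases outside annotated exons, with a matched word in capitals. They are chr3:95526636-95526785 (+) for Ctss, chr3:95499060-95499209 (+) for Ctsk, chr6:48537475-48537568 (+) for Atp6v0e2, chr16:44139306-44139409 (-) for Atp6v1a and chr4:117887334-117887479 (-) for Atp6v0b.
Ctss: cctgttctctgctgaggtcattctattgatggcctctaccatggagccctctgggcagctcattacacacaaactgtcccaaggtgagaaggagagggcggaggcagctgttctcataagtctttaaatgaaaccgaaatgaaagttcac
Ctsk: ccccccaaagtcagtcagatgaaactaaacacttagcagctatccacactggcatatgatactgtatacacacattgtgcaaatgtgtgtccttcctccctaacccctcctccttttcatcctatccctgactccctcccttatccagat
Atp6v0e2: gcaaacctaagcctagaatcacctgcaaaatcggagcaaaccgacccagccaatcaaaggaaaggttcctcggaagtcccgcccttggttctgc
Atp6v1a: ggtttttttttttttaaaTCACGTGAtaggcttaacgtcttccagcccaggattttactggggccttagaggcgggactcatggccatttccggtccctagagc
Atp6v0b: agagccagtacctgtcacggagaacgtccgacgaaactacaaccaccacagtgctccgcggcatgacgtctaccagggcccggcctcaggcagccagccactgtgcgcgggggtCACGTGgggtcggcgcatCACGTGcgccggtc
Ctsw and Atp6v0d2 had no promoter entry.

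A promoter entry, running from 250 bases before to 50 bases after a start site, was found for 28 of the 39 members. CACGTG occurred in 4 of 12 cathepsins (Ctsa, Ctsd, Ctsf and Ctsl) and 4 of 16 pump genes (Atp6v0b, Atp6v0d1, Atp6v0e and Atp6v1a). That is 33.3% and 25.0%, against 8.1% of the 27025 genes in the table (2187 genes). These 27025 are all genes with a promoter entry, not only the 14379 tested in liver, and were not matched to the members by level. TCACGTGA occurred in 5 of the 28 members (17.9%), and in 304 of all genes (1.1%). In Ctsd, the tested member with the highest level per kilobase, the longer word began 99 bases before the start, and in Atp6v1a 132 bases before it. None of the 3 called members with an entry (Ctss, Ctsk and Atp6v0e2) held either word, which says only that these letters are not in that window. For Ctsk and Atp6v0e2 the bases checked after the start were not found in a GENCODE vM21 transcript of the gene. The start used for both may thus differ from that of the gene model. The 8 members with CACGTG had log2 fold changes from -0.34 to 0.22 in F4MKO + FSTL1 compared with F4MKO, and 0 of them were called. Beside 11.2% of all genes called lower, counts this small cannot set members with the word apart from those without it.

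Ctss encodes cathepsin S, a protease of antigen-presenting cells that trims the invariant chain of MHC class II and remains active near neutral pH. The gene (ENSMUSG00000038642.10) lies on the plus strand of chromosome 3, positions 95526786 to 95556403 of GRCm38, in 8 exonic blocks. Its level was 68.0, 73.7 and 94.6 CPM in the Flox libraries, 139.6, 106.4 and 110.6 CPM in the F4MKO libraries, and 48.2, 37.3 and 62.7 CPM in the F4MKO + FSTL1 libraries. The 3 groups did not overlap, with F4MKO highest and F4MKO + FSTL1 lowest. Ctss fell by 1.27 on the log2 scale (SE 0.19, edgeR adjusted p = 0.00186), or 2.41-fold, in F4MKO + FSTL1 compared with F4MKO. The log2 fold change was 0.59 (SE 0.19, edgeR adjusted p = 0.154) in F4MKO compared with Flox and -0.67 (SE 0.19, edgeR adjusted p = 0.163) in F4MKO + FSTL1 compared with Flox. Neither of these passed, although both passed with all genes tested and no low-count filter (adjusted p = 0.0294 and 0.0143).

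Ctsk, for cathepsin K, the collagen-degrading protease known from osteoclasts and fibroblasts, ends 17423 bases before Ctss on the same strand of chromosome 3 (ENSMUSG00000028111.4, positions 95499256 to 95509362). It was a low-level gene, with 38, 44 and 32 reads in Flox, 85, 38 and 72 in F4MKO and 17, 18 and 17 in F4MKO + FSTL1. In CPM these were 1.69, 1.8 and 1.42, then 3.01, 1.59 and 2.87, then 0.794, 0.865 and 0.888. The F4MKO + FSTL1 libraries lay close together below all 6 others, while the second F4MKO library lay within the Flox range. Ctsk fell by 1.55 on the log2 scale (SE 0.28, edgeR adjusted p = 0.00422), or 2.93-fold, in F4MKO + FSTL1 compared with F4MKO. Its log2 fold change was 0.61 (SE 0.26, edgeR adjusted p = 0.272) in F4MKO compared with Flox.

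Ctsw encodes cathepsin W, also named lymphopain, a protease of cytotoxic T cells and natural killer cells (ENSMUSG00000024910.5, minus strand of chromosome 19, positions 5465043 to 5468507). It had 27, 21 and 25 reads in Flox, 57, 27 and 33 in F4MKO and 15, 14 and 15 in F4MKO + FSTL1, or 1.2, 0.86 and 1.11, 2.02, 1.13 and 1.32, and 0.701, 0.673 and 0.783 CPM. All F4MKO + FSTL1 libraries were below the others, and the second F4MKO library was again within the Flox range. The log2 fold change was -1.05 (SE 0.30, edgeR adjusted p = 0.0279), a 2.08-fold lower level, in F4MKO + FSTL1 compared with F4MKO. The call was lost on leaving out some single libraries: without the first F4MKO library the log2 fold change was -0.77 (adjusted p = 0.117), and without each of the F4MKO + FSTL1 libraries in turn the adjusted p was 0.0732, 0.0981 and 0.0537. Its exons overlap those of the antisense gene Fibp by 9 bases, and whether counting used strand is not given in the sources used here.

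Atp6v0d2 encodes the d2 subunit of the V0 sector, known from osteoclasts and macrophages, where it takes the place of the widely expressed d1 subunit (ENSMUSG00000028238.6, minus strand of chromosome 4, positions 19876841 to 19922605). It had 43, 54 and 74 reads in Flox, 250, 225 and 126 in F4MKO and 59, 23 and 23 in F4MKO + FSTL1. The same libraries read 1.92, 2.21 and 3.28 CPM, 8.84, 9.42 and 5.03 CPM, and 2.76, 1.11 and 1.2 CPM. F4MKO lay above both other groups in every library, and the other groups overlapped each other. Atp6v0d2 fell by 2.19 on the log2 scale (SE 0.36, edgeR adjusted p = 0.00277), or 4.56-fold, in F4MKO + FSTL1 compared with F4MKO. In F4MKO compared with Flox the log2 fold change was 1.65 (SE 0.34, edgeR adjusted p = 0.061) and it did not pass. There it passed with no low-count filter (adjusted p = 0.000642), with DESeq2 (adjusted p = 0.000606) and without the third F4MKO library (log2 fold change 1.88, adjusted p = 0.0434).

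Atp6v0e2 encodes the e2 form of the small e subunit of V0 (ENSMUSG00000039347.7, plus strand of chromosome 6, positions 48537615 to 48541801). It had 20, 20 and 16 reads in Flox, 63, 38 and 44 in F4MKO and 13, 5 and 17 in F4MKO + FSTL1, which were 0.892, 0.819 and 0.71, 2.23, 1.59 and 1.76, and 0.607, 0.24 and 0.888 CPM. As for Atp6v0d2, F4MKO did not overlap either of the other groups, and those overlapped each other. The log2 fold change was -1.69 (SE 0.36, edgeR adjusted p = 0.00835), a 3.23-fold lower level, in F4MKO + FSTL1 compared with F4MKO. In F4MKO compared with Flox it was 1.20 (SE 0.34, edgeR adjusted p = 0.122).

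**Figure D1:**
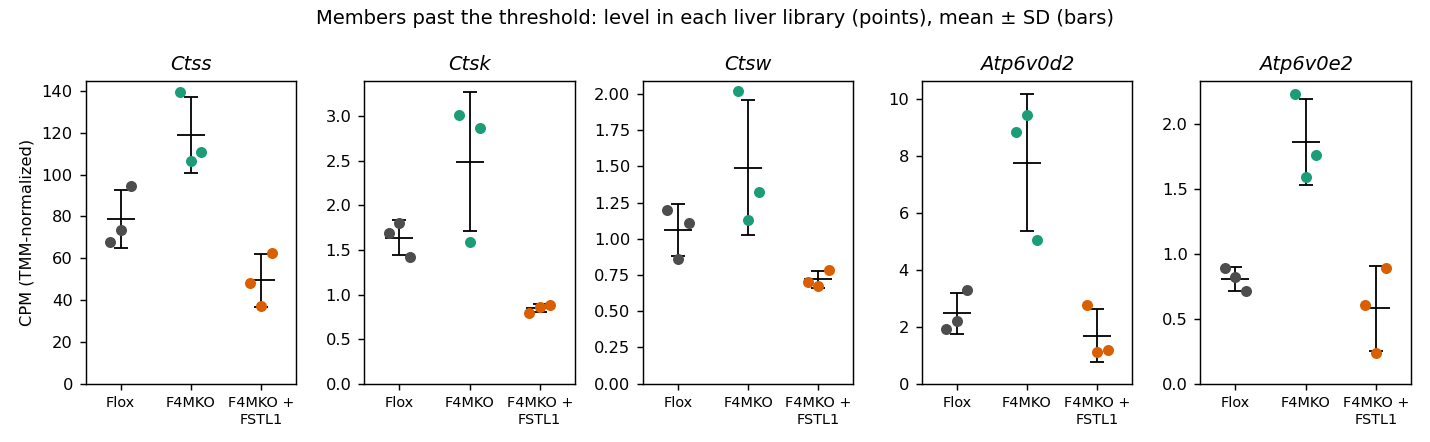
Level of the 5 called members (CPM after TMM normalization, linear axes from 0) in each of the 9 liver libraries; points are libraries and bars the mean ± SD of 3. In each panel the F4MKO + FSTL1 points lie below the F4MKO points, and for Atp6v0d2 (5.03 to 9.42 CPM in F4MKO, 1.11 to 2.76 CPM in F4MKO + FSTL1) the Flox points lie beside the F4MKO + FSTL1 points.

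Without the first F4MKO + FSTL1 library, the library low in Irf4, the log2 fold changes in F4MKO + FSTL1 compared with F4MKO were -1.25 for Ctss (edgeR adjusted p = 0.00832), -1.50 for Ctsk (0.0167), -2.74 for Atp6v0d2 (0.0042) and -1.73 for Atp6v0e2 (0.0263). These 4 members kept their calls when any of the 9 libraries was left out, while Ctsw lost its call in 4 of the 9 cases. In each of the 5 called members the mean of Flox lay between those of F4MKO and F4MKO + FSTL1. The comparisons of F4MKO with Flox and of F4MKO + FSTL1 with F4MKO share the F4MKO libraries, and opposite signs in them are not independent.

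The other comparisons called no member. In F4MKO compared with Flox, where 0.271% of all genes were called (39 genes, of which 0 remained called without the first F4MKO library or without any of the Flox libraries), 0 of 32 members passed edgeR's test, and 5 had an unadjusted p under 0.05 (Ctss, Ctsk, Atp6v0c, Atp6v0d2 and Atp6v0e2, each higher in F4MKO). DESeq2 called 1 of them, Atp6v0d2. Over all genes tested, 2424 of 14379 had an unadjusted p under 0.05 in this comparison, a share close to that of the members. In F4MKO + FSTL1 compared with Flox, where 0.00695% of all genes (1 gene) were called, 0 of 32 passed edgeR's test and 4 cathepsins had an unadjusted p under 0.05 (Ctsb, Ctsc, Ctsk and Ctss, each lower in F4MKO + FSTL1). DESeq2 called Ctss there (adjusted p = 0.0336). In this comparison 1924 of all 14379 genes had such an unadjusted p, again a share close to that of the 32 members.

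None of the remaining 10 tested cathepsins passed. Their log2 fold changes in F4MKO + FSTL1 compared with F4MKO ran from -0.34 to 0.17, with SE from 0.11 to 0.35, and the median of the 10 was 0.04. Over the 13 the median was -0.27, beside 0.01 over all genes tested.

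Per kilobase of exon, the cathepsins with the highest level over the 9 libraries were Ctsd (224.1 CPM per kb), Ctsz (204.5) and Ctsb (146.8). Ctsd encodes cathepsin D, the main aspartic protease of lysosomes. Its level was 538.3, 462.5 and 608.8 CPM in Flox, 586.7, 591.3 and 568.2 CPM in F4MKO and 456.4, 442.9 and 487.5 CPM in F4MKO + FSTL1. The F4MKO + FSTL1 libraries were below those of F4MKO, by a log2 fold change of -0.33 (SE 0.12, edgeR adjusted p = 0.0651) that did not pass, and Flox overlapped both.

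Ctsb, for cathepsin B, a cysteine protease that also removes dipeptides from the carboxyl end of its substrates, read 928.5, 824.7 and 1024 CPM in Flox, 919.5, 1017 and 958.8 CPM in F4MKO and 778.3, 755.6 and 790.3 CPM in F4MKO + FSTL1. Here the F4MKO + FSTL1 libraries were below all others, with a log2 fold change of -0.32 (SE 0.11, edgeR adjusted p = 0.0673) against F4MKO that likewise missed the threshold. The gene shares 774 exonic bases with Fdft1 on the opposite strand, so that reads of the 2 genes may not be told apart.

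Ctsz encodes cathepsin Z, also called cathepsin X, a carboxypeptidase. It read 280.1, 263.7 and 361.5 CPM in Flox, 284.5, 259.5 and 288.3 CPM in F4MKO and 264.7, 317.2 and 332.3 CPM in F4MKO + FSTL1. The groups overlapped, and the log2 fold change between F4MKO + FSTL1 and F4MKO was 0.14 (SE 0.14, edgeR adjusted p = 0.516).

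Ctsl, for cathepsin L, was number 4 by level (82.6 CPM per kb) and had a log2 fold change of -0.34 (edgeR adjusted p = 0.104), with every F4MKO + FSTL1 library below every F4MKO library. It shares 1742 exonic bases with the antisense gene model Gm47123. Ctsh, an aminopeptidase (58.4 CPM per kb), and Ctsa, the serine carboxypeptidase that protects beta-galactosidase and neuraminidase (42.8 CPM per kb), had log2 fold changes of 0.17 and 0.08. The others were Ctsc, which activates granule serine proteases (15.4 CPM per kb, log2 fold change -0.27), Ctso (9.18, 0.03), Ctsf (4.67, 0.16) and Ctse (0.311, 0.05). Ctse, for the aspartic protease cathepsin E, read 0.802, 0.492 and 0.71 CPM in Flox, 0.637, 1.72 and 1.04 CPM in F4MKO and 1.21, 1.15 and 1.1 CPM in F4MKO + FSTL1. Its F4MKO + FSTL1 libraries lay above those of Flox (log2 fold change 0.79, SE 0.37, edgeR adjusted p = 0.393), while F4MKO overlapped Flox (log2 fold change 0.75, SE 0.37, edgeR adjusted p = 0.333). Of the called cathepsins, Ctss was number 5 of 13 by level per kilobase (60.6), and Ctsk (1.10) and Ctsw (0.577) were near the bottom.

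**Figure D2:**
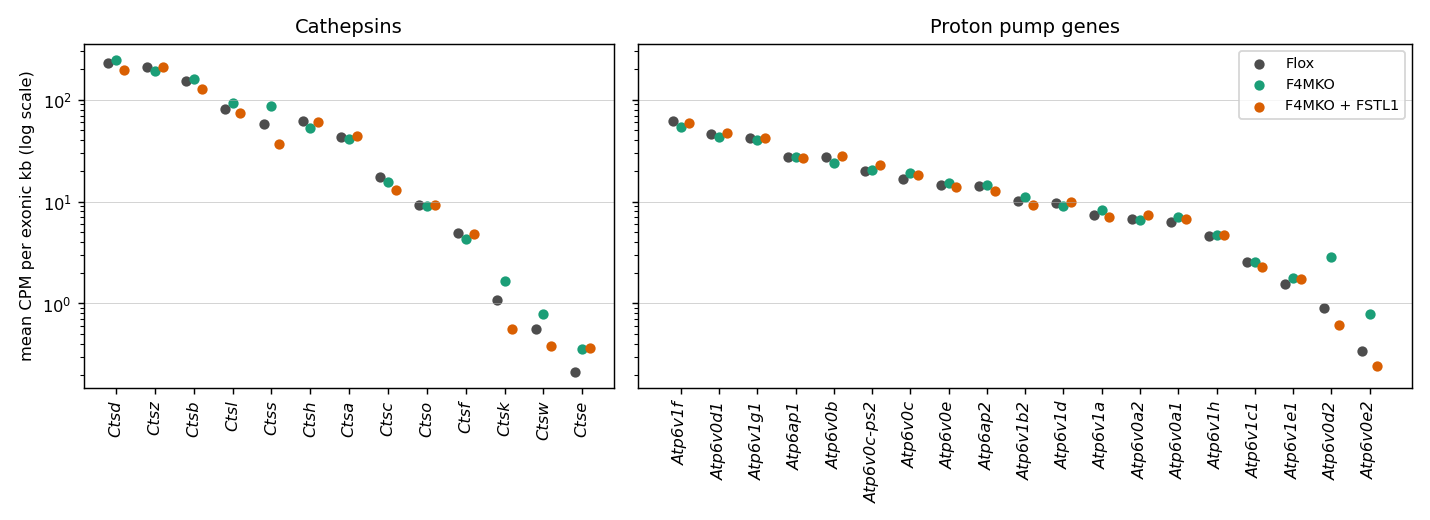
Mean level per kilobase of exon (CPM per kb, log axis) of the 13 cathepsins and 19 pump genes tested, in order of their mean over the 9 libraries; each dot is a group mean of 3 libraries. Among cathepsins Ctsd leads at 224.1 CPM per kb and Ctse is lowest at 0.311, and Atp6v0d2 (1.46) and Atp6v0e2 (0.454) stand at the end of the pump genes with the F4MKO dot set above the other 2.

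Most of the pump stayed within a narrow range. Of the 19 tested pump genes, the 17 that were not called had log2 fold changes from -0.28 to 0.22 in F4MKO + FSTL1 compared with F4MKO, with SE from 0.08 to 0.33. Their median was -0.04, and the median of all 19 was -0.05.

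The pump genes with the highest level per kilobase were Atp6v1f (58.3 CPM per kb), Atp6v0d1 (45.0) and Atp6v1g1 (41.4). Atp6v1f, for the F subunit of the central stalk of V1, read 67.5, 60.9 and 67.9 CPM in Flox, 54.6, 52.3 and 66.9 CPM in F4MKO and 58.0, 61.4 and 68.2 CPM in F4MKO + FSTL1. The groups overlapped, with a log2 fold change of 0.11 (SE 0.11, edgeR adjusted p = 0.511) in F4MKO + FSTL1 compared with F4MKO.

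Atp6v0d1, for the widely expressed d1 subunit that joins the rotor to the stalk, read 91.1, 75.6 and 78.5 CPM in Flox, 72.6, 74.3 and 82.6 CPM in F4MKO and 81.6, 82.5 and 87.3 CPM in F4MKO + FSTL1. The F4MKO + FSTL1 libraries overlapped with F4MKO at the top of its range, and the log2 fold change was 0.13 (SE 0.10, edgeR adjusted p = 0.369). Atp6v1g1, for the G subunit of the outer stalks, read 49.1, 43.7 and 49.3 CPM in Flox, 41.5, 46.9 and 47.9 CPM in F4MKO and 41.7, 49.2 and 53.2 CPM in F4MKO + FSTL1. Its groups overlapped, and its log2 fold change was 0.08 (SE 0.11, edgeR adjusted p = 0.636).

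In the V1 sector, 0 of 8 tested subunits were called. The catalytic subunit Atp6v1a and its partner Atp6v1b2, which together form the ATP-hydrolysing head, had small differences with an adjusted p just under 0.05. Atp6v1a read 51.3, 50.7 and 48.9 CPM in F4MKO and 43.6, 42.8 and 41.6 CPM in F4MKO + FSTL1 (log2 fold change -0.24, SE 0.08, edgeR adjusted p = 0.0444). Atp6v1b2 read 59.3, 55.7 and 63.1 CPM in F4MKO and 48.3, 47.9 and 50.2 CPM in F4MKO + FSTL1 (log2 fold change -0.28, SE 0.09, edgeR adjusted p = 0.0468). In both genes the groups did not overlap, and neither reached the 1.5-fold change. These p-values rested on the full set of libraries: on leaving out each library in turn the adjusted p of Atp6v1a was 0.0539 to 0.13 and that of Atp6v1b2 0.0372 to 0.142, under 0.05 in 0 and 1 of the 9 cases. Counted with any fold, 7 of 32 members had an adjusted p under 0.05 and a lower level, beside 13.1% of all genes. Atp6v1c1, for the C subunit that takes part in joining V1 to V0, varied widely between libraries, from 6.84 to 18.9 CPM in F4MKO + FSTL1 (log2 fold change -0.19, SE 0.33). The log2 fold changes of Atp6v1d, Atp6v1e1 and Atp6v1h were 0.15, -0.04 and 0.02.

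In the V0 sector, 2 of 8 tested subunits were called (Atp6v0d2 and Atp6v0e2). The proteolipid ring genes Atp6v0c and Atp6v0b had log2 fold changes of -0.05 and 0.22 in F4MKO + FSTL1 compared with F4MKO, the membrane-anchored a subunits Atp6v0a1 and Atp6v0a2 -0.06 and 0.16, and the common e subunit Atp6v0e -0.11. The counts of Atp6v0c are uncertain, because a processed pseudogene of it, Atp6v0c-ps2 (log2 fold change 0.19), has a near copy of its sequence and reads may have been split. The accessory proteins Atp6ap1 and Atp6ap2, which take part in assembly of the pump, were at 27.0 and 13.8 CPM per kb with log2 fold changes of -0.05 and -0.20.

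**Figure D3:**
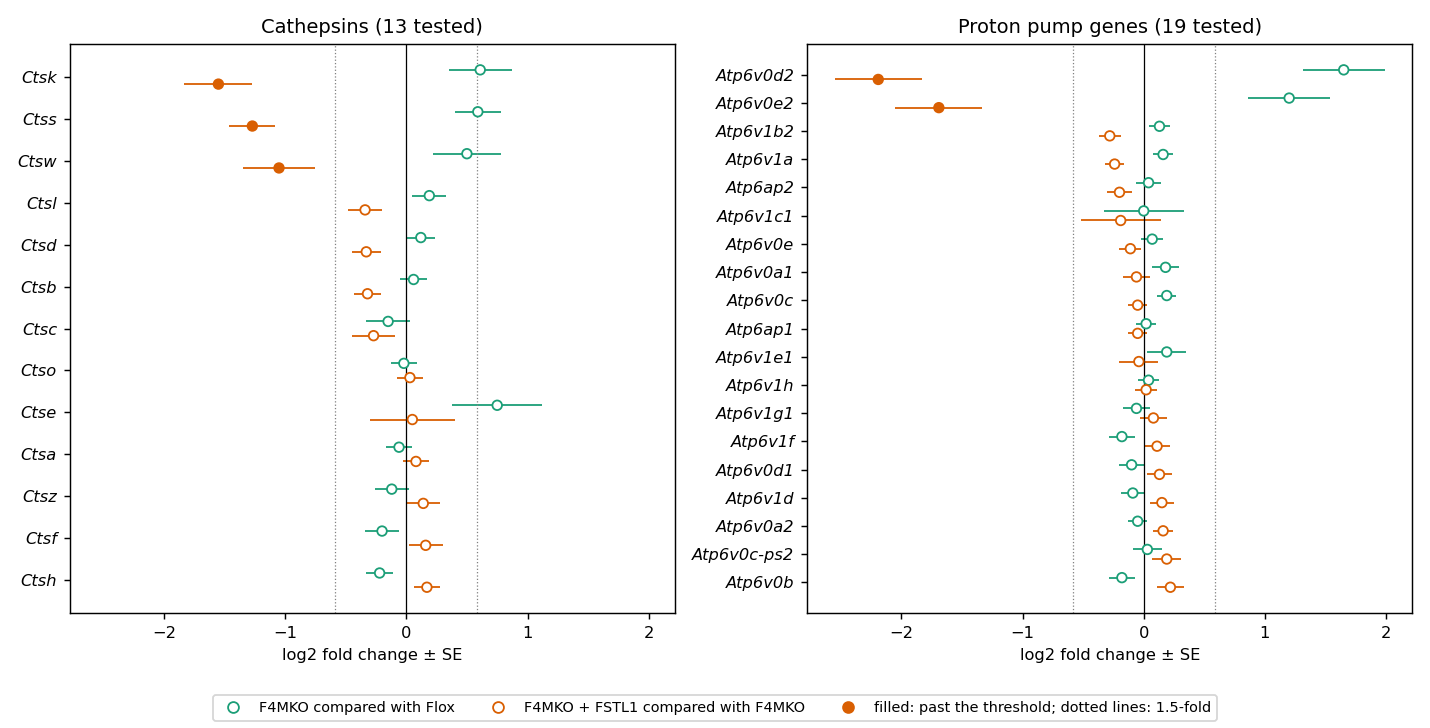
Log2 fold change ± SE of the 13 cathepsins and 19 pump genes tested, for F4MKO compared with Flox (green) and F4MKO + FSTL1 compared with F4MKO (orange); filled circles passed the test and dotted lines mark a 1.5-fold change. The 5 filled circles lie between -1.05 and -2.19, and the other members lie within 0.34 of 0 in the orange comparison; both comparisons share the F4MKO libraries.

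Counted by libraries that do not overlap, 11 of 32 members had all F4MKO + FSTL1 libraries below all F4MKO libraries (6 cathepsins and 5 pump genes, 34.4%) and 2 had all above (6.2%). Among all genes tested 21.1% were lower and 18.0% higher in this way. In F4MKO compared with Flox, 6 of 32 members did not overlap, beside 21.8% of all genes. Ctss, Atp6v0c, Atp6v1a, Atp6v0d2 and Atp6v0e2 were higher in every F4MKO library, and Ctsh was lower in every one.

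The 7 members under the filter had few reads. Ctsg, the serine protease of neutrophil granules, had 0 to 3 reads in a library, Ctsj 0 to 11 and Ctsq 0 to 1. Atp6v0a4 and Atp6v1b1, the forms of the a and B subunits known from acid-secreting kidney cells, had 2 to 6 and 0 to 1, and Atp6v1c2 and Atp6v1g2 had 0 to 2 and 0 to 3. A count of 0 allows up to 3 reads at this depth, and these genes were not tested.

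The subunits that exist in several forms were set against each other as shares of reads per exonic kilobase. Atp6v0d2 made up 1.37%, 1.9% and 2.69% of the d subunit RNA in Flox, 7.44%, 7.72% and 3.86% in F4MKO and 2.18%, 0.877% and 0.9% in F4MKO + FSTL1. F4MKO lay above both other groups, and even there the d1 form made up most of the RNA. Atp6v0e2 made up 2.45%, 2.46% and 2.01% of the e subunit RNA in Flox, 5.77%, 4.47% and 4.47% in F4MKO and 1.88%, 0.755% and 2.38% in F4MKO + FSTL1. F4MKO was again above both. Tcirg1, which encodes the a3 subunit of osteoclasts and macrophages under a symbol outside the patterns, made up 43.4%, 47% and 53.4% of the RNA of a1, a2 and a3 in Flox, 49.3%, 48.6% and 50.3% in F4MKO and 36.5%, 41% and 46.9% in F4MKO + FSTL1. Its F4MKO + FSTL1 libraries lay below those of F4MKO and within or below the Flox range, and its log2 fold change was -0.40 (SE 0.13, edgeR adjusted p = 0.0547). With 3 samples against 3, the exact two-sided permutation test cannot go below p = 0.1, and all 3 shares gave p = 0.1 between F4MKO + FSTL1 and F4MKO. Any 2 groups of 3 that do not overlap give this value, so the test adds nothing to the lack of overlap described above.

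**Figure D4:**
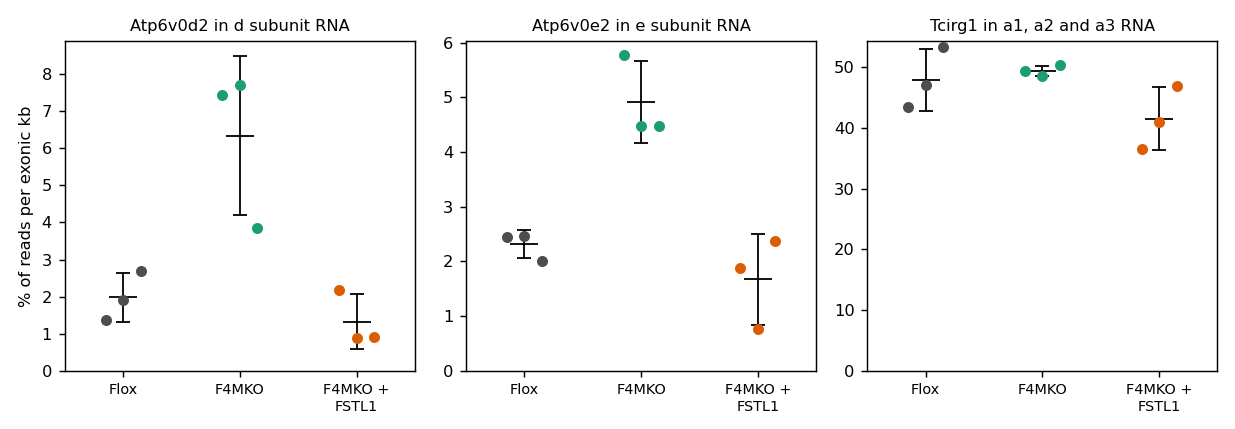
Share (% of reads per exonic kilobase, linear axes from 0) of Atp6v0d2 in d subunit RNA, of Atp6v0e2 in e subunit RNA and of Tcirg1 in the RNA of Atp6v0a1, Atp6v0a2 and Tcirg1; points are libraries and bars the mean ± SD of 3. The F4MKO means are 6.34% for Atp6v0d2 and 4.91% for Atp6v0e2, against 1.98% and 2.31% in Flox and 1.32% and 1.67% in F4MKO + FSTL1, while Tcirg1 holds 41.5% to 49.4% in all 3 groups.

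The called members contributed few of the reads of their families. Ctss, Ctsk and Ctsw together made up 2.9% of the summed cathepsin CPM, and Ctsb, Ctsd and Ctsl 66.0%. These shares are not scaled for length. Ctss, with 1358 exonic bases against 6051 for Ctsb and 6489 for Ctsl, would hold a larger share per kilobase. Atp6v0d2 and Atp6v0e2 made up 0.6% of the summed pump CPM. The summed level of the 16 cathepsins was 2770 to 3386 CPM in Flox, 3046 to 3244 CPM in F4MKO and 2577 to 2895 CPM in F4MKO + FSTL1, so that the F4MKO + FSTL1 range lay below that of F4MKO and overlapped Flox. The 23 pump genes summed to 754.9 to 813.9 CPM, 781.1 to 824.1 CPM and 772.0 to 813.4 CPM, which overlapped in all 3 groups.

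Many markers of several cell types moved with the called members. Of 15 macrophage markers, 11 were called lower in F4MKO + FSTL1 compared with F4MKO (73.3%, beside 11.2% of all genes tested). The 4 not called had log2 fold changes of -0.29 (Clec4f), -0.41 (Vsig4), 0.51 (Timd4) and 0.08 (Marco). In F4MKO compared with Flox these 4 were lower (-0.36, -0.33, -1.26 and -1.41), unlike the called members, and did not pass. All 15 summed to 780.0 to 1206 CPM in Flox, 1015 to 1087 CPM in F4MKO and 456.7 to 716.4 CPM in F4MKO + FSTL1. Of 9 markers of lipid-associated macrophages, a list that holds Atp6v0d2 itself, 8 were called lower in that comparison and 2 higher in F4MKO compared with Flox (Gpnmb and Spp1), calls that were lost without the first F4MKO library. Their sums were 251.3 to 331.9, 525.3 to 833.7 and 146.8 to 182.9 CPM, with F4MKO above both other groups, as for Atp6v0d2 and Atp6v0e2. Among the 10 stellate cell and fibroblast markers 6 were called lower, with sums of 441.4 to 513.6, 578.2 to 743.8 and 290.5 to 399.1 CPM, and 3 of 8 dendritic cell markers were called lower, with sums of 30.1 to 48.4, 40.8 to 56.2 and 22.9 to 31.4 CPM. Itgax, 1 of these 3, is also in the lipid-associated macrophage list and is counted in both. The 5 dendritic cell markers not called had log2 fold changes from -1.01 (Cd209a) to 0.13 (Zbtb46). None of these 4 lists had a marker at 0 in any library. The lower macrophage and stellate cell markers in F4MKO + FSTL1 run opposite to the staining reported by the study, described above.

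Cholangiocyte markers summed to 70.3 to 109.2 CPM in Flox, 183.5 to 461.2 CPM in F4MKO and 54.5 to 70.5 CPM in F4MKO + FSTL1, and 5 of 7 tested were called lower in F4MKO + FSTL1 compared with F4MKO. Spp1, which is also in the lipid-associated macrophage list, made up much of this sum, at 397.3, 143.2 and 203.1 CPM in F4MKO. Without Spp1 the cholangiocyte sums were 28.1 to 33.5, 40.3 to 63.9 and 22.3 to 26.8 CPM, and the lipid-associated macrophage sums 191.5 to 272.5, 322.2 to 436.4 and 101.5 to 139.2 CPM, with F4MKO still above both other groups in each. For the cells in which Ctsw is best known, 0 of 7 tested T and NK cell markers were called (2 had an unadjusted p under 0.05), and their sums overlapped at 5.55 to 7.89, 5.61 to 9.69 and 3.27 to 10.1 CPM, with Ncr1 at 0 in at least 1 library. Of these 7, 6 were lower in F4MKO + FSTL1 than in F4MKO (median log2 fold change -0.38), and Gzma was higher (0.57). Those with an unadjusted p under 0.05 were the low-level genes Klrb1c (-1.45, edgeR adjusted p = 0.0623) and Cd3d (-0.95, edgeR adjusted p = 0.0689). The sum of 10.1 CPM was that of the third F4MKO + FSTL1 library, beside 3.27 and 4.81 CPM in the others of its group. Hepatocyte markers such as Alb, which define the labelled tissue, summed to 113509 to 119814 CPM in Flox, 84659 to 119260 CPM in F4MKO and 103261 to 123629 CPM in F4MKO + FSTL1. The lowest sum was that of the first F4MKO library, beside 119260 and 116212 CPM in the others of its group. Of these 10 markers, 2 were called higher in F4MKO + FSTL1 compared with F4MKO. Of endothelial and B cell markers 0 of 8 and 0 of 6 were called (2 and 0 had an unadjusted p under 0.05), and 0 of the 3 tested neutrophil markers (1 under 0.05), 7 of 10 of which were at 0 in at least 1 library. The part of these markers in the results was not tested. In whole liver RNA, fewer cells of a type and less RNA per cell cannot be told apart.

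**Figure D5:**
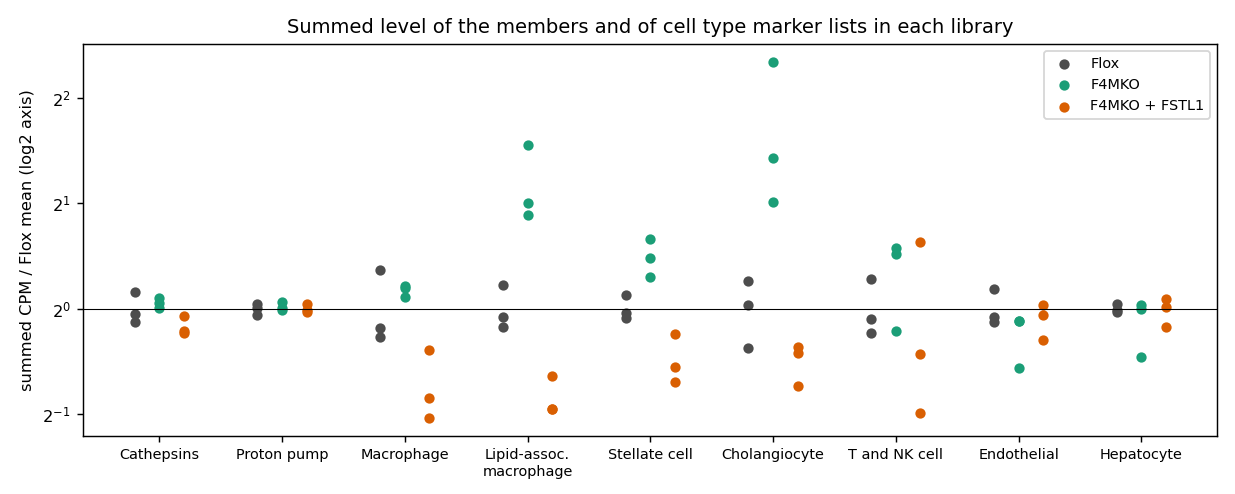
Summed CPM of the cathepsins, the pump genes and the cell type marker lists in each library, divided by the mean of the Flox libraries (log2 axis, 1 marks the Flox mean); each dot is a library. The pump sums lie together in all 3 groups (754.9 to 824.1 CPM), while the lipid-associated macrophage and cholangiocyte sums of F4MKO, which share Spp1, lie above those of both other groups.

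Genes whose products act on the cathepsins were counted next. Of 15 tested genes for cathepsin inhibitors, activators and the sorting of lysosomal enzymes, 5 were called lower in F4MKO + FSTL1 compared with F4MKO and 0 higher (33.3%, beside 11.2% of all genes). Their median log2 fold change was -0.16. The list was chosen with earlier results of these data known, and its share was not set apart from that of all genes by any test. The strongest 3 of those called were Sort1, a sorting receptor for lysosomal proteins (-1.08, SE 0.29, edgeR adjusted p = 0.0218), Serpina3g (-0.78, SE 0.12, adjusted p = 0.00232) and Serpinb6a (-0.74, SE 0.17, adjusted p = 0.0101), both serpins that inhibit proteases. The cysteine protease inhibitor gene Cstb and the protease gene Lgmn, whose product processes several cathepsins, were the others (-0.67 and -0.72). Cst3, the secreted cystatin C, had a log2 fold change of -0.01.

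Among 75 other lysosomal genes tested, 9 were called lower in F4MKO + FSTL1 compared with F4MKO and 0 higher, with a median log2 fold change of -0.08. This is close to the 11.2% of all genes called lower, and so not a result about lysosomal genes. The list shares Lgmn with the genes above. In the membrane protein genes it was 4 of 28, led by Cd63 (log2 fold change -1.65, SE 0.30, edgeR adjusted p = 0.00429), the macrophage marker Cd68 (-1.10, SE 0.19, adjusted p = 0.00368) and the ion channel gene Tpcn2 (-0.87, SE 0.21, adjusted p = 0.0149). In the hydrolases and their activators it was 5 of 47, among them Galns (-0.84, SE 0.14, adjusted p = 0.00304) and Asah1, the acid ceramidase (-0.76, SE 0.15, adjusted p = 0.00621). In the other comparisons 0 of 75 were called by edgeR (8 had an unadjusted p under 0.05 in F4MKO compared with Flox and 12 in F4MKO + FSTL1 compared with Flox, where DESeq2 called 1 and 2). Over all 14379 genes tested, 2424 and 1924 had such an unadjusted p. Of 12 further genes of pump structure and assembly, 1 was called lower, Ncoa7 (-1.35, SE 0.25, edgeR adjusted p = 0.00441).

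The transcription regulators of lysosomal genes were examined as well. Of the 7, Bhlhe41, a basic helix-loop-helix repressor that binds E-boxes, was called higher in F4MKO + FSTL1 compared with F4MKO (log2 fold change 1.45, SE 0.30, edgeR adjusted p = 0.0068). Tfeb, the activator of the lysosomal gene network, had a log2 fold change of 0.55 (SE 0.12, edgeR adjusted p = 0.00898), short of 1.5-fold. The others had log2 fold changes of -0.11 (Tfe3), -0.26 (Mitf), -0.33 (Tfec), 0.36 (Zkscan3) and 0.20 (Bhlhe40), with edgeR adjusted p from 0.0722 to 0.591. These are RNA levels, and the location or activity of the proteins was not measured.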

How the data were processed

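RNA of 9 mouse liver samples was sequenced by the authors on a BGISEQ platform. Per the labels' processing notes and the study's methods, the authors trimmed reads with Trim Galore (0.6.7), aligned them to mm10 with HISAT2 (2.2.1) and counted them per gene with featureCounts (2.0.1). The deposited table holds these raw counts for 24008 genes, not normalized. The annotation, the use of strand and the treatment of multiply mapped reads are not given in the sources used here, and differences in them would touch overlapping genes and pseudogenes.

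Groups came from the labels. Counts were filtered with filterByExpr (minimum 10 in 3 libraries, total 15), scaled by TMM and fitted over all 9 libraries with edgeR (4.0.16, R 4.3.3), adjusting over all 14379 genes. Biological variation between libraries of a group came to a coefficient of 0.15. The test code was checked on simulated counts. Levels per length used GENCODE vM21 exons. Marker sums and shares were computed from CPM and counts. Alternatives were DESeq2 (1.42.0), its size factors, no filter, a replicate block, other thresholds, fewer libraries and leaving out each library. No 2 libraries were alike (at least 19159 genes differed).

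The members and all gene lists were chosen with earlier results of these data known. Values by library are given for called members and for the 3 of each family with the highest level per length. Ctse, Atp6v1a and Atp6v1b2, which are neither, also have values by library. Other lists are given by counts and some named genes, called or not, with all regulators and Tcirg1. The values of 1 other lysosomal gene are not reported here. Of cathepsin and pump genes outside the symbol patterns, only the list of 12 tested pump genes counted above, Tcirg1 among them, was analysed.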

Additional observations from a re-analysis of the deposited data

How the results depend on the processing

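In F4MKO + FSTL1 compared with F4MKO, the 3 called cathepsins and 2 called pump genes were called with DESeq2's size factors, no filter, the replicate block, the 6 libraries alone and DESeq2. Counting adjusted p alone gave 4 pump genes and 17 other lysosomal genes (16 lower), and testing against a 1.5-fold change gave 1 (Atp6v0d2) and 1 (Cd63), with Ctsw at adjusted p = 0.246 and Atp6v0e2 at 0.0511, because a stricter null is tested. Leaving out each library gave 2 to 3 cathepsins, 2 to 2 pump genes and 6 to 11 other lysosomal genes. In F4MKO compared with Flox, 1 cathepsin (Ctss), 1 pump gene (Atp6v0d2) and 1 other lysosomal gene passed with no filter, where 478 genes were called in place of 39. DESeq2 called 338, with 1 pump gene and 1 other lysosomal gene among them, and leaving out each library gave 0 to 1 pump genes. In F4MKO + FSTL1 compared with Flox, 1 cathepsin (Ctss) passed with no filter and 1 with DESeq2, and 3 and 2 other lysosomal genes, with 0 to 3 on leaving out each library. The cause of the differences between tools and filters was not tested.

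Small differences changed sign on leaving out a library: log2 fold changes ran from -0.04 to 0.08 for Atp6v1h, -0.25 to 0.47 for Ctse, -0.59 to 0.11 for Atp6v1c1, -0.07 to 0.11 for Ctso and -0.20 to 0.08 for Atp6v1e1. Samples were not treated as pairs by replicate number. Correlations of same-numbered deviations ran from -0.099 to 0.304, and not every pair exceeded 0.1 in any comparison. Those of replicate 3 were positive in all 3 comparisons (0.169, 0.304 and 0.206), and whether equal numbers share a batch was not tested. With the number as a replicate block, 3 cathepsins, 2 pump genes and 10 other lysosomal genes were called in F4MKO + FSTL1 compared with F4MKO, and 0 members in the other comparisons. Over all genes the block gave 134 calls in place of 39 in F4MKO compared with Flox. In F4MKO + FSTL1 compared with Flox it gave 15 in place of 1.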
